A study of Rattus norvegicus with 8 samples.

Results

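The let-7 and miR-98 family was followed in the kidneys of rats given aristolochic acid (AA), a plant toxin that damages the kidney and causes tumors there. Its members were taken by name, as every listed miRNA called let-7a to let-7i or miR-98, whichever arm of the hairpin it came from. This gave 17 of the 620 miRNAs, namely 8 guide arms (rno-let-7a, rno-let-7b, rno-let-7c, rno-let-7d, rno-let-7e, rno-let-7f, rno-let-7i and rno-miR-98, written without the species prefix from here on) and 9 other arms, which carry a star in their name. The rule itself uses the names alone. The question was whether the members differ between AA-treated and control kidneys, and whether the balance among them or between the arms of a hairpin differs. Both groups were male Fisher 344 rats of the Big Blue transgenic line, which carries a shuttle vector for mutation assays in every cell. The 4 AA-treated rats were gavaged 5 times a week with the sodium salt of AA (10.0 mg per kg in a volume of 4 ml per kg), beginning 6 weeks after birth, and the 4 controls were given 0.9% sodium chloride on that schedule. The labels give all rats an age of 18 weeks at the end, and give treatment for 12, 13, 14 and 15 weeks to the rats numbered 1, 2, 3 and 4 of either group, which that common age does not allow for all of them, while their treatment protocol gives 12 weeks for every rat. Each rat gave 1 small RNA library of 13412373 to 15616670 counts, and the values below are counts divided by a size factor of 0.818 to 1.28 (normalized counts).

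miRNAs of this family are made from short hairpins. Dicer cuts the hairpin into a duplex, and the guide arm is kept by an Argonaute protein while the other arm is mostly degraded. The guide pairs through its seed, bases 2 to 8, with target mRNAs, which are then repressed. The let-7 family is abundant in differentiated tissues, is held back in stem cells and early embryos by the RNA-binding proteins Lin28a and Lin28b, and has Ras, Myc and Hmga2 among its known targets.

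The mature sequences show why the family is treated as a unit and where its members differ. Of the 17 members, 16 were matched by name to RefSeq (GRCr8), and let-7c-1* is named only. The 8 guide arms, all 22 bases long, follow from the most to the least abundant, 5′ to 3′, with the seed in capitals.
let-7f: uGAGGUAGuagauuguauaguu
let-7i: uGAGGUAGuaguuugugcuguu
let-7c: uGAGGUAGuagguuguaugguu
let-7a: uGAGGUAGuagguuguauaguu
let-7b: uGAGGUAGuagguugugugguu
let-7e: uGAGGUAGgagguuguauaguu
let-7d: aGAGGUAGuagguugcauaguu
miR-98: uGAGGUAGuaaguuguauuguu

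All 8 share the seed GAGGUAG, which RefSeq lists in 9 of its 693 rat mature miRNA names. The other one is let-7g, which is not among the 620 miRNAs, so that the sums and shares below leave it out. Outside the seed they differ by 1 to 6 bases. Counted from 1 at the 5′ end, let-7a becomes let-7f by G12A, let-7c by A19G and let-7e by U9G, and let-7c becomes let-7b by A17G. These were the 4 of 28 pairs with a single difference, so that reads with an error or an internal mismatch could be counted on a neighbouring member. How reads that fit several miRNAs were assigned is not given in the sources used here, and values of these 5 members are uncertain to that extent. The 4 other arms whose values are described most fully below differ from each other in their own seed, again in capitals.
let-7d*: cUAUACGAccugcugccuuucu
let-7e*: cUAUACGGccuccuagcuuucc
let-7f-1*: cUAUACAAucuauugccuucc
let-7i*: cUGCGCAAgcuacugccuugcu

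In RefSeq the members come from several chromosomes. let-7a, let-7c and let-7f each have 2 hairpins with the same guide sequence, so that their counts cannot be divided between loci. The let-7f guide lies at chr17:16320508-16320529 (plus strand), inside the non-coding gene LOC120097935 together with a let-7a hairpin and let-7d, and also at chrX:24460052-24460073 (plus strand), next to miR-98 and inside the gene of the ubiquitin ligase Huwe1. The let-7e guide lies at chr1:67350243-67350264 (plus strand) within Spaca6, beside miR-99b and miR-125a. The second let-7a locus, chr8:50805219-50805240 (plus strand), is beside miR-100, and let-7c-1, whose guide is at chr11:29688127-29688148 (plus strand), is beside miR-99a. let-7b and let-7c-2 lie together, at chr7:118684044-118684065 and chr7:118683636-118683657 (both plus strand), and let-7i lies alone at chr7:60527935-60527956 (minus strand).

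let-7f was the most abundant member in every rat. It had 387517, 333851, 324473 and 240599 normalized counts in control rats 1 to 4, and 512610, 327583, 318916 and 399898 in AA-treated rats 1 to 4. Control rat 4 was the lowest and AA-treated rat 1 the highest of the 8, and the groups overlapped. By its mean share of the library counts, let-7f ranked 8th of the 620 miRNAs, let-7i 21st, let-7c 23rd, let-7a 27th and let-7b 33rd. let-7e ranked 59th, let-7d 61st and miR-98 93rd.

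The guides fell in 1 order, with 1 tie. The order was let-7f, let-7i, let-7c, let-7a, let-7b, then let-7e and let-7d, then miR-98. All guides have the same length, so that their counts need no scaling by length, although ligation and PCR can favour 1 sequence over another. let-7f exceeded let-7i by 4.65-fold to 5.72-fold within a rat. let-7i and let-7c were nearer to each other, with a ratio of 1.00 to 1.34, and let-7c exceeded let-7a by 1.26-fold to 1.47-fold. Each of these steps, and those from let-7a to let-7b and from let-7b to let-7e, had the same direction in 8 of 8 rats. let-7e and let-7d did not keep an order, since let-7e was the higher in 4 of 8 rats, with a ratio of 0.837 to 1.27. miR-98 was below let-7d in 8 of 8 rats, by 2.24-fold to 5.18-fold.

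**Figure D1:**
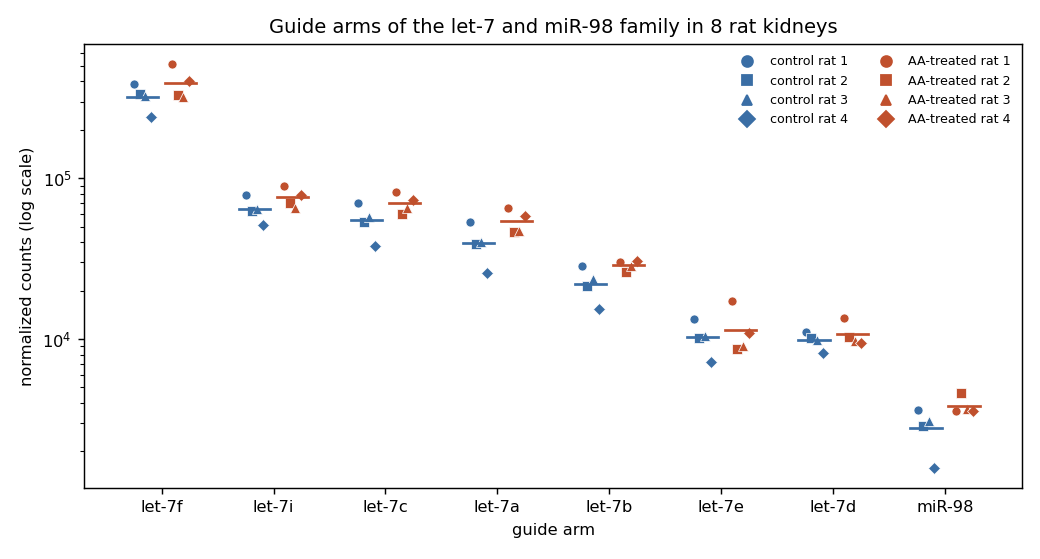
Normalized counts (log scale) of the 8 guide arms in each of the 4 control (blue) and 4 AA-treated (red) rats, with symbols for the rat number and lines for group means. The order of the members is the same in all rats apart from let-7e and let-7d, and control rat 4 is the lowest of the 8 rats for all 8 guides.

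No guide arm passed the test between AA-treated and control kidneys. A miRNA was called when its adjusted p in edgeR's quasi-likelihood fit was under 0.05 and the group means differed by over 1.5-fold. By this rule 0 of 17 members were called, whereas 9.03% of all miRNAs were. DESeq2 and limma-voom also called 0 members. An unadjusted p under 0.05 was found for 0 of the 17 and 148 of the 620 miRNAs in this fit, for 0 members with DESeq2 and for 1 (let-7e*) with limma-voom. That count depended on the scaling, with 1 member (let-7a) under TMM and 6 guides (let-7f, let-7i, let-7c, let-7a, let-7b and miR-98) under total counts. It also depended on other choices, with 4 guides (let-7c, let-7a, let-7b and miR-98) without control rat 1. With a term for the rat number it was 5 (let-7a, let-7b, miR-98, let-7i* and let-7e*), and the remaining alternatives gave 0 to 2. The AA-treated rats lay on 1 side of all control rats for 0 of 17 members and for 16.3% of all miRNAs.

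The estimates of the guides were all on the side of higher counts after AA. Their mean was higher in the AA-treated rats for 8 of 8 guides, with a median log2 fold change of 0.32, beside 0.05 over all miRNAs, of which 51.6% were above 0. The guides share libraries and size factors and are not independent of each other. Scaling by total counts moved the median of all miRNAs to 0.31 and that of the guides to 0.56, so that the guides lay 0.27 above the median of all miRNAs with size factors and 0.24 above it with total counts. Without control rat 4, the guides lay 0.09 above it. The upper bounds of the 95% intervals of the 8 guides ran from 0.52 to 0.99 on the log2 scale and the lower bounds from -0.38 to -0.03, and an increase of 1.5-fold lay inside the interval for 7 of the 8.

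miR-98 and let-7a had the highest fold changes among the guides. miR-98 had 3600, 2864, 3081 and 1586 normalized counts in the control rats and 3565, 4620, 3651 and 3577 in the AA-treated rats. AA-treated rats 1, 3 and 4 lay close together, just below or above control rat 1, and control rat 4 stood well below the rest. Its log2 fold change was 0.47 (95% interval -0.05 to 0.99, edgeR adjusted p = 0.272). let-7a had 53398, 38914, 39927 and 25935 normalized counts in the control rats and 65220, 46001, 46749 and 58039 in the AA-treated rats. Only control rat 1 reached the range of the AA-treated rats. The log2 fold change of let-7a was 0.45 (95% interval -0.03 to 0.93, edgeR adjusted p = 0.243), the lowest adjusted p in the family.

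let-7b was even among the AA-treated rats. It had 28352, 21238, 23516 and 15292 normalized counts in the control rats and 30161, 26168, 28279 and 30723 in the AA-treated rats, a coefficient of variation of 24.5% against 7.15%. Its log2 fold change was 0.38 (95% interval -0.04 to 0.81, edgeR adjusted p = 0.273). let-7c spanned 38054 to 70124 normalized counts among controls and 59850 to 81944 after AA, with a log2 fold change of 0.36 (edgeR adjusted p = 0.311). The values of let-7f above gave 0.28 (95% interval -0.17 to 0.73, edgeR adjusted p = 0.446). let-7i spanned 50904 to 79082 among controls and 65331 to 89632 after AA, which gave 0.24 (edgeR adjusted p = 0.451).

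let-7e and let-7d were the guides with the smallest fold changes. let-7e had 13296, 10087, 10507 and 7248 normalized counts in the control rats and 17149, 8659, 9101 and 10883 in the AA-treated rats. AA-treated rat 1 was the highest of the 8 by a wide margin, and AA-treated rats 2 and 3 lay below 3 of the controls. The log2 fold change was 0.15 (95% interval -0.38 to 0.69, edgeR adjusted p = 0.712) and turned to -0.11 without AA-treated rat 1. let-7d had 11126, 10219, 9930 and 8208 in the control rats and 13531, 10349, 9737 and 9383 in the AA-treated rats, with a log2 fold change of 0.12 (95% interval -0.28 to 0.52, edgeR adjusted p = 0.700), which was -0.01 without AA-treated rat 1.

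**Figure D2:**
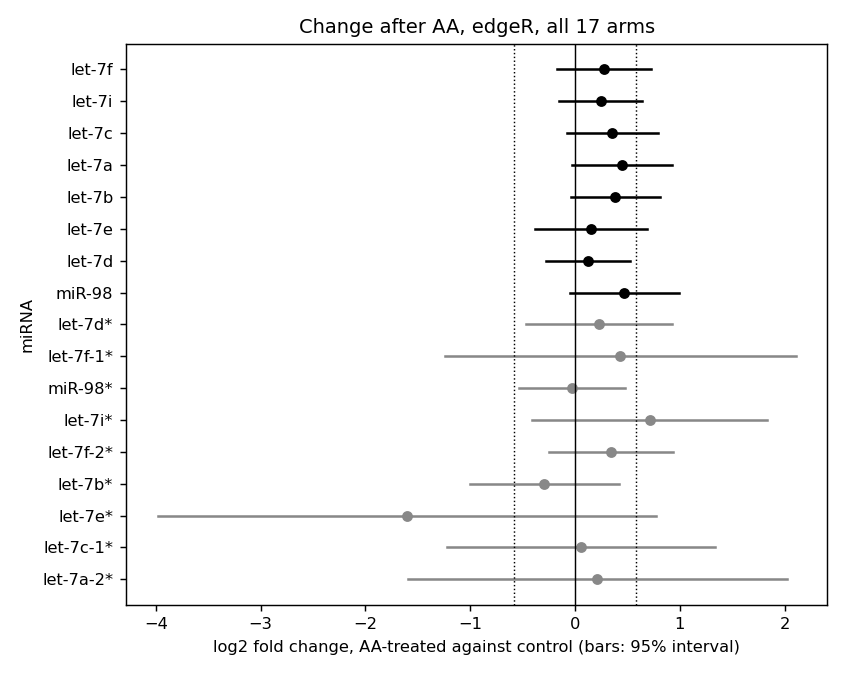
Log2 fold change of AA-treated against control rats for the 17 members (points), with 95% intervals from edgeR (bars), guide arms in black and other arms in grey. The dotted lines mark 1.5-fold in either direction. All 17 intervals include 0, that of let-7a-2* rests on 0 to 4 counts per rat, and that of let-7e*, from -3.98 to 0.77, is the widest.

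The guides summed to 646496, 532880, 533121 and 387826 normalized counts in control rats 1 to 4 and to 813813, 553641, 546788 and 664176 in AA-treated rats 1 to 4. Control rat 1 lay above AA-treated rats 2 and 3, and control rat 4 lay below all others. The means were 525081 ± 105997 and 644604 ± 124976 (SD, n = 4 each), a ratio of 1.23. Their difference did not pass the test (exact permutation test over 70 labelings, two-sided, p = 0.143). As a percentage of all counts of a library, the guides took 4.08, 3.31, 3.62 and 2.31% in the control rats and 5.41, 4.67, 4.01 and 5.22% in the AA-treated rats. On this scale only control rat 1 overlapped the AA-treated rats, narrowly, and the ratio of means was 1.45 (exact permutation test, two-sided, p = 0.0571, where the smallest p possible is 0.0286). Without control rat 4 the ratio of normalized sums was 1.13, and without AA-treated rat 1 it was 1.12. A percentage of the library falls or rises with every other abundant miRNA in it, whereas the size factors are set by the median miRNA. In whole kidney, a change in the number of cells of a type and a change in RNA per cell cannot be told apart.

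**Figure D3:**
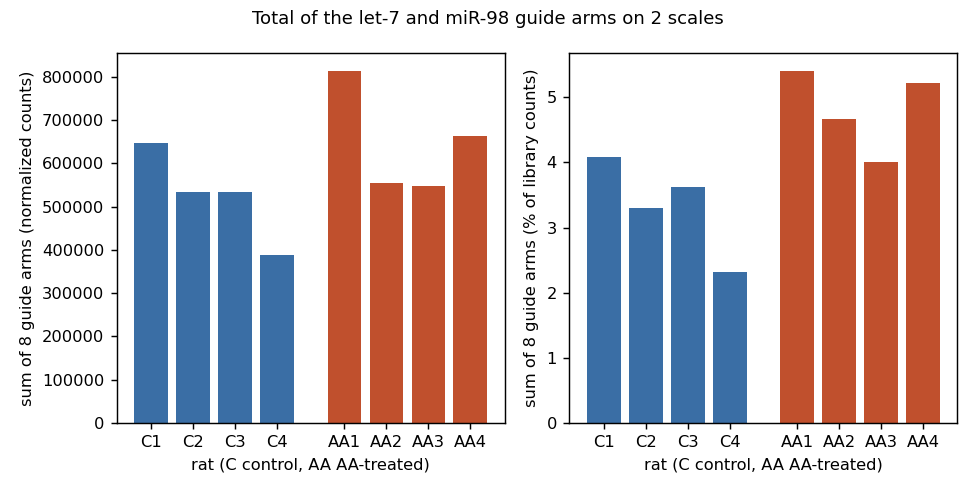
Sum of the 8 guide arms in each rat, as normalized counts (left) and as a percentage of all library counts (right), for control rats C1 to C4 (blue) and AA-treated rats AA1 to AA4 (red). The groups overlap on both scales, by more on the left (ratio of means 1.23) than on the right (ratio 1.45).

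Shares within the family do not depend on the size factors. let-7f made up 58.3 to 63.0% of the guide counts in all 8 rats, let-7i 11.01 to 13.1%, let-7c 9.81 to 11.9% and let-7a 6.69 to 8.74%. miR-98 made up 0.409 to 0.835%. None of the 8 shares passed an exact permutation test after adjustment over the 8. The smallest exact p possible is 0.0286, so that 1 share alone could not pass 0.05 after this adjustment. The smallest p was that of let-7a, with 8.26, 7.30, 7.49 and 6.69% in the control rats and 8.01, 8.31, 8.55 and 8.74% in the AA-treated rats (mean 7.43% ± 0.648 and 8.40% ± 0.313, SD, n = 4 each, exact permutation test, two-sided, p = 0.0571, adjusted p = 0.343). Only control rat 1 overlapped the AA-treated rats. let-7e took 2.06, 1.89, 1.97 and 1.87% in the control rats and 2.11, 1.56, 1.66 and 1.64% in the AA-treated rats (exact permutation test, two-sided, p = 0.171, adjusted p = 0.343). AA-treated rat 1 had the highest let-7e share of the 8 and the other AA-treated rats the 3 lowest. With let-7f, let-7c, let-7a, let-7b and let-7e added up, since chains of single base differences link them, the group took 85.3% ± 0.649 in control and 85.8% ± 0.982 in AA-treated rats (SD, n = 4 each).

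**Figure D4:**
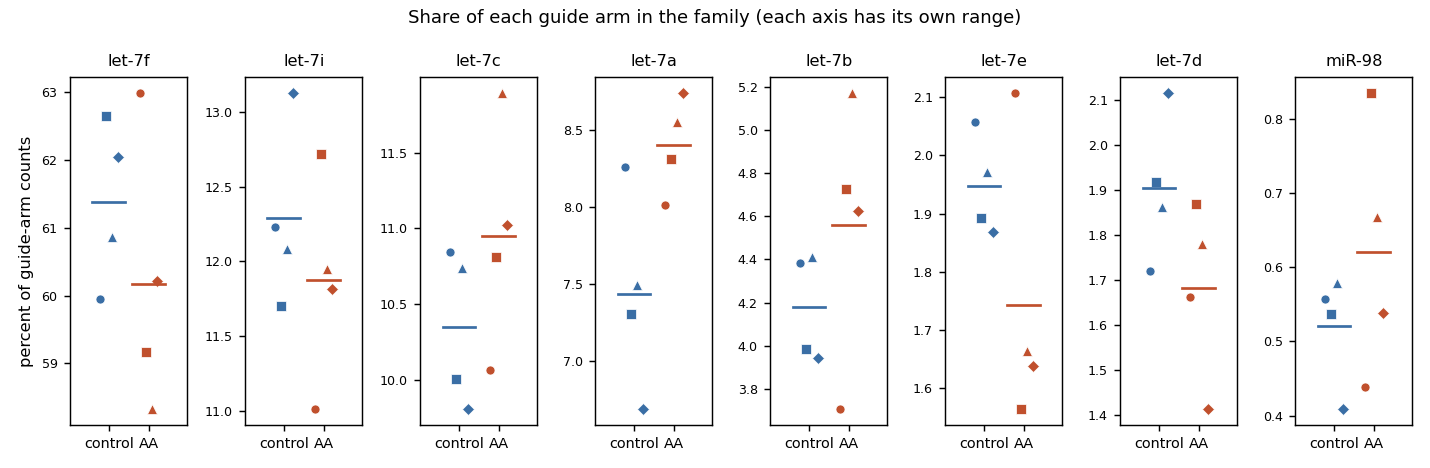
Share of each guide arm in the summed guide counts of a rat (percent), with a separate vertical range for each member, for control (blue) and AA-treated (red) rats, symbols by rat number as in the plot of guide levels and lines for group means. let-7a overlaps through control rat 1 alone, and let-7e separates into AA-treated rat 1 at 2.11% and the other AA-treated rats at 1.56 to 1.66%.

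The other arms were far rarer than the guides. Each was below its guide in 8 of 8 rats, and together they made up 0.183 to 0.683% of the family's counts, with the highest value in control rat 4 and the next, 0.425%, in AA-treated rat 4. let-7d* and miR-98* were the most retained, with 61.5 to 213 and 39.7 to 147 counts per 1000 counts of their guide. let-7a-2* was the rarest, and no rat had more than 4 counts of it. At 21 bases in RefSeq, let-7f-1*, let-7f-2* and miR-98* are shorter than the 22 to 30 bases that the labels give for the RNA cut from the gel, so that their counts may not be comparable with those of longer arms.

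None of the other arms was called in this fit. Apart from let-7a-2*, their log2 fold changes were above 0 for 5 of 8, with a median of 0.14. The highest was that of let-7i*, which had 20.8, 32.9, 51.2 and 127 normalized counts in the control rats and 60.6, 57.8, 75.9 and 183 in the AA-treated rats. Control rats 1 to 3 lay below every AA-treated rat, and control rat 4 lay above AA-treated rats 1 to 3. Its log2 fold change was 0.71 (95% interval -0.41 to 1.83, edgeR adjusted p = 0.426). It was 1.42 without control rat 4, 0.18 without AA-treated rat 4 and 0.89 without both (edgeR adjusted p = 0.133 without both). With a term for the rat number it was 0.83 and let-7i* was called (edgeR adjusted p = 0.0497). Same-numbered rats are different animals and were not taken as pairs. let-7f-1* gave 0.43, let-7f-2* 0.34, let-7d* 0.23, let-7c-1* 0.05, miR-98* -0.03 and let-7b* -0.30, with edgeR adjusted p of 0.480 or more. let-7a-2* did not exceed 3 counts in any control or 4 in any rat, so that its fitted fold change depends on the prior count of the fit and measures nothing. Its plotted value is that fitted one.

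let-7e* and let-7f-1* differed widely between rats of a group. let-7e* is cut from the 3′ side of the let-7e hairpin, shown here because this hairpin carries the widest arm difference of the family, with both mature arms in capitals (RefSeq GRCr8, chr1:67350229-67350321, plus strand).
let-7e hairpin: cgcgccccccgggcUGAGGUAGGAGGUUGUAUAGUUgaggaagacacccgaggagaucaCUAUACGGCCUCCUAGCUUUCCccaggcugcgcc

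Its counts were 58, 76, 83 and 4 in the control rats and 67, 1, 1 and 1 in the AA-treated rats. Each group thus had rats on both sides, since control rat 4 was low and AA-treated rat 1 was as high as the controls. The guide of the same hairpin varied far less. It was also highest in AA-treated rat 1 and lowest in control rat 4 and AA-treated rats 2 and 3, but spanned only 7248 to 17149 normalized counts. The log2 fold change of let-7e* was -1.61 (95% interval -3.98 to 0.77, edgeR adjusted p = 0.396), and limma-voom gave -3.62 (unadjusted p = 0.0158, adjusted p = 0.119). Without AA-treated rat 1 let-7e* was called (edgeR adjusted p = 3.44e-04). Without control rat 4 it was not called (log2 fold change -2.01, edgeR adjusted p = 0.301). AA-treated rats 2 to 4 had 1 count each. Against a floor of 3 counts per rat their level was at least 22.0-fold lower than the control mean. That bound rests on rats picked by their values, since it leaves out AA-treated rat 1. It does not hold against control rat 4, which had 4.89 normalized counts. The log2 ratio of let-7e* to its guide was -8.02 ± 1.61 in control and -11.6 ± 2.52 in AA-treated rats (SD, n = 4 each, exact permutation test, two-sided, p = 0.0571, adjusted over the 9 arms 0.514). The difference was -3.57 with 0.5 added to both counts and depended on that choice, with -3.30 when 1 was added and -2.36 when 5 was added. let-7f-1* had 186, 194, 1 and 342 counts in the control rats and 188, 311, 218 and 540 in the AA-treated rats. Only control rat 3 was nearly without it, while its let-7f guide had 342245 counts in that rat. The log2 fold change of let-7f-1* was 1.99 with limma-voom, against 0.43 in edgeR, and 0.02 without control rat 3, 0.12 without AA-treated rat 4 and 1.03 without control rat 4. A spread over 50-fold within a group, with at least 50 normalized counts in its highest rat, was found for 6 of the 301 miRNAs with at least 50 normalized counts in some rat, and 2 of these 6 were let-7e* and let-7f-1*. These limits were chosen after the values were seen. The part of library preparation or read assignment in these near-zero counts was not tested.

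The rats numbered 4 had the highest share of other arms in several hairpins. let-7d* had 213 counts per 1000 of its guide in control rat 4 and 199 in AA-treated rat 4, against 61.5 to 110 in the other 6 rats. let-7i* had 2.50 and 2.33 per 1000 in these rats and 0.263 to 1.16 in the others, and let-7c-1* had 0.610 and 0.300 against 0.0685 to 0.117. With 0.5 added to both counts, control rat 4 was the highest of the controls for 8 of the 9 arms. AA-treated rat 4 was the highest of its group for 6, and both held for 6. For let-7a-2* the place of control rat 4 rested on the added 0.5. Without it, this arm had 0.0471 per 1000 in control rat 4 and up to 0.0475 in the 6 rats not numbered 4. let-7e* went the other way in control rat 4. With at least 10 counts in every rat, both held for 3 of 5 arms of the family and for 18 of 64 other hairpins (28.1%), a comparison made after the values were seen and not tested. None of the 9 arm ratios passed after adjustment (exact permutation tests, two-sided, lowest adjusted p = 0.514, that of let-7e*). The smallest exact p possible is 0.0286, so that 1 arm alone could not pass 0.05 after adjustment over 9. These tests therefore do not show that the arm ratios were alike in the groups.

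**Figure D5:**
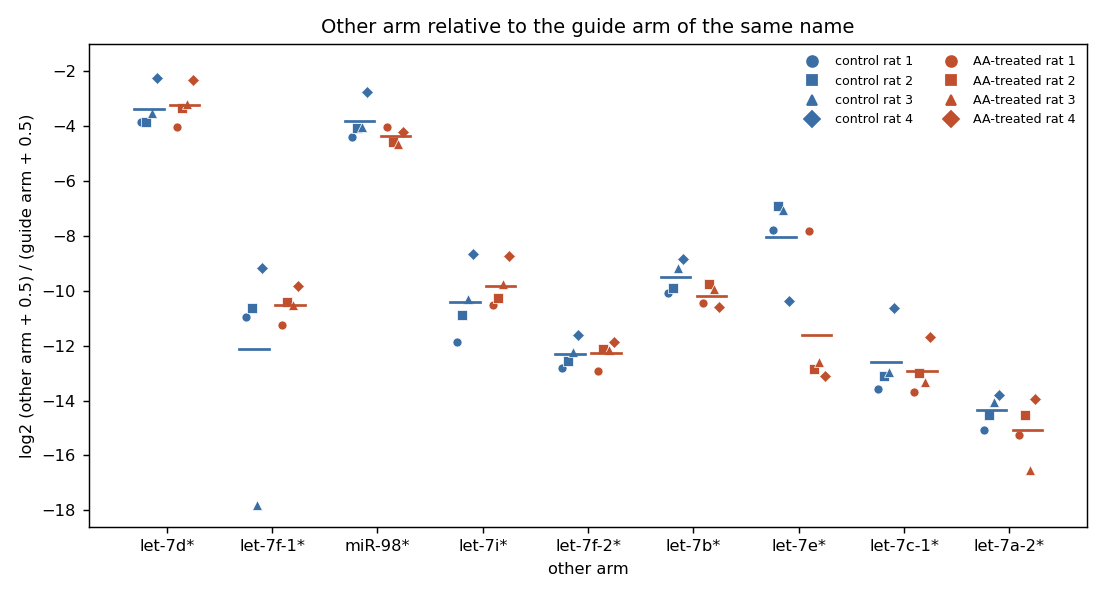
Log2 ratio of each other arm to its guide, with 0.5 added to both counts, in control (blue) and AA-treated (red) rats, symbols by rat number and lines for group means. The diamonds of the rats numbered 4 are at the top of both groups for 6 of 9 arms, and the low points of let-7f-1* (control rat 3) and let-7e* (AA-treated rats 2 to 4) stand 2 or more log2 units below the rest of their column.

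For 5 guide neighbours in the genome, the log2 fold changes were below 0 and did not pass the test. miR-99a, miR-99b, miR-100, miR-125a-5p and miR-125b-5p are made from the same or neighbouring transcripts as let-7c, let-7e and let-7a, and miR-125 is known as the mammalian relative of lin-4. Of 13 arms listed for this group, 11 were in the data, 0 were called higher and 1 (miR-125b*) was called lower, a share near the 9.03% of all miRNAs, with a median log2 fold change of -0.26. The 5 named here had log2 fold changes of -0.31, -0.20, -0.32, -0.05 and -0.26 in that order, and none was called (edgeR adjusted p of 0.369 or more). Of 10 ratios between neighbours, 6 held a miRNA outside the family, and 2 did not overlap between the groups. Single miRNAs did not overlap in 16.3%, a share of levels that is no background for ratios. Both ratios without overlap have miR-125b-5p as their second term, and let-7c and let-7a differ by 1 base. let-7c to miR-125b-5p was 3.13 to 5.08 in control and 5.51 to 7.48 in AA-treated rats, and let-7a to miR-125b-5p was 2.14 to 3.87 and 3.96 to 5.93. These ratios were chosen after the values were seen and were not tested. let-7e to miR-99b overlapped, with 0.0761 to 0.109 in control and 0.0847 to 0.166 in AA-treated rats.

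Among the other miRNAs, the pattern most like the family total over the 8 rats was that of miR-362, miR-872 and miR-196b. Likeness was the root mean square difference in log2(normalized count + 1), centred on each miRNA's own mean. It was 0.111, 0.125 and 0.158 for these 3, beside a median of 0.479 over 229 miRNAs with a mean of at least 100 normalized counts. Measured against the sum of the other guides, let-7i was at 0.0817, let-7f at 0.0948 and let-7c at 0.0950, closer than any of the 229. let-7a was at 0.133, let-7e at 0.153, let-7b at 0.154 and let-7d at 0.163. miR-98 was the least alike guide, at 0.305, and 32 of the 229 were closer.

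The kidney label was checked on marker miRNAs. All 7 tubule markers were present, with summed levels of 3514259 to 4204472 normalized counts in control and 2677027 to 3857900 in AA-treated rats, and 1 of them (miR-204) was called lower. Of 6 leukocyte markers, 5 were present and 2 were called higher (miR-142-3p and miR-223), beside 9.03% of all miRNAs called, and the leukocyte sum ran from 31909 to 42211 in control and from 48745 to 77012 in AA-treated rats, without overlap. The 2 red cell markers in the data had a median log2 fold change of -0.66 and summed to 6910 to 11910 in control and 2172 to 8116 in AA-treated rats, and the 2 endothelial ones had -0.42 and summed to 124106 to 164003 and 88876 to 137262, with none called. None of the 5 smooth muscle and fibroblast or 3 striated muscle markers was called either, with medians of 0.43 and -0.79. The sum of the smooth muscle and fibroblast markers went against their median. It ran from 2559048 to 3549718 in control and from 1973055 to 2676497 in AA-treated rats. The liver marker miR-122 ranged from 10.1 to 7519 within the AA-treated group. Of the 2 neuron markers, miR-124 was called higher, with 0 to 3.67 normalized counts in control and 6.90 to 25.0 in AA-treated rats, the former at or under 3 counts. No marker in the data was at 0 in all rats. The part of cell composition in the guide levels was not tested.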

How the data were processed

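Each of the 8 kidneys gave 1 small RNA library. CASAVA 1.7 is named in the submitters' processing notes. The authors removed adaptors and contaminated reads and assigned the rest to rat miRNAs of miRBase release 16 using miRanalyzer. The deposited table holds raw read counts per mature miRNA, and how reads fitting more than 1 miRNA were counted is not given in the sources used here. All 8 columns belonged to labelled rats, and no 2 rats of a group agreed within sampling noise (chi-square per degree of freedom of 394 or more).

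Median-of-ratios size factors were applied, and the 620 miRNAs were tested with edgeR 4.0.16 (quasi-likelihood, no covariate, Benjamini-Hochberg over all of them) in R 4.3.3. For single values, the 70 labelings of the rats gave an exact permutation test. Alternatives were TMM, total counts, DESeq2 1.42.0, limma-voom (limma 3.58.1), robust edgeR, a filter of 10 counts in 4 libraries, a replicate block, pseudocounts of 1 and 5, and leaving out rats. Python 3.11.15 (matplotlib 3.10.9, pandas 2.3.3, scipy 1.17.1, numpy 2.4.6) was used. In tests on simulated data, 4-fold changes were mostly recovered and 2-fold changes were often missed. The first acceptance limit, set for all sizes together, was not met, and it was replaced by one for 4-fold changes alone after that result was seen. All members are named. From other miRNAs, the text names fixed neighbours and the 3 most alike, and markers or neighbours that were called. The liver marker miR-122 and the miRNAs opposite the guides (miR-3596a to miR-3596d) were singled out after their values were seen. Members, lists and markers were chosen with earlier results of these data known. Intervals of single counts are not given, and limits at 3 counts cover counting error only. The mRNA and proteomic data were not used here.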

Additional observations from a re-analysis of the deposited data

Results flagged for a closer look

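Among 82 groups of 4 values (levels, shares and arm ratios of the members, the family total on 2 scales and the levels of 5 neighbouring miRNAs), 8 (9.76%) held a rat whose distance to its nearest neighbour exceeded 0.829 of the group's range. Chance gives about 1 in 20. For the guides this was 1 rat, AA-treated rat 2 with 4620 normalized counts of miR-98, against 3565 to 3651 in the rest of its group. Control rat 4 stood apart with 1751 normalized counts of let-7d* (705 to 864 in the other controls) and with 23.2 of let-7c-1* (5.197 to 6.64). AA-treated rat 4 stood apart with 439.7 normalized counts of let-7f-1* (211 to 243 in the other AA-treated rats), with 183 of let-7i* (57.8 to 75.9) and with 21.99 of let-7c-1* (5.61 to 7.02). AA-treated rat 1 stood apart with 75.2 normalized counts of let-7e* (0.780 to 0.986) and, in the same hairpin, with a log2 arm ratio of -7.82 (-13.1 to -12.6).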

How the results depend on the processing

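The replicate block, a term for the rat number, called 1 member, let-7i* (log2 fold change 0.83, edgeR adjusted p = 0.0497, higher after AA in 4 of 4 same-numbered pairs; let-7e* was at -3.003 with an adjusted p of 0.0983 and let-7f-1* at 0.98), and leaving out AA-treated rat 1 called 1 member, let-7e*, so that the members called ran from 0 to 1 when single rats were left out. The other 14 alternatives called 0 members, and the summed guides, the shares and the let-7e arm ratio stayed on their side of the threshold under the 12, 11 and 12 alternatives run for them. Fold changes turned direction for 6 members, none of them called in either direction. miR-98* was at 0.018 with TMM, 0.23 with total counts and 0.078 without both rats numbered 4, and let-7a-2*, with 0 to 4 counts per rat, was at a fitted -0.23 with limma-voom and -0.48 without both rats numbered 4. With single rats left out, log2 fold changes ran, for the guides that kept their direction, from 0.12 to 0.38 for let-7f, 0.14 to 0.36 for let-7i, 0.21 to 0.50 for let-7c, 0.28 to 0.63 for let-7a, 0.23 to 0.53 for let-7b and 0.27 to 0.62 for miR-98. For the members that turned they ran from -0.11 to 0.30 for let-7e, -0.0075 to 0.19 for let-7d, -0.058 to 0.61 for let-7d*, -0.11 to 0.071 for miR-98*, -0.65 to 0.81 for let-7c-1* and -0.45 to 0.56 for let-7a-2*. The differences in log2 arm ratio also turned, over -0.15 to 0.52 for let-7d*, -0.25 to 2.63 for let-7f-1*, -0.12 to 0.29 for let-7f-2* and -0.75 to 0.31 for let-7c-1*. The cause was not tested. With a rat left out, or with 4 pairs, the exact tests cannot go below 0.0571 and 0.125, so that these alternatives say nothing about the stability of the single values. Same-numbered rats are different animals, and their number goes with the labelled weeks of treatment, which conflict with the common age. The correlation of their deviations was 0.0551 to 0.325 over 367 miRNAs, with a mean of 0.175, beside a mean of -0.0545 for rats of unlike number. In addition, 2 of 4 control and 3 of 4 AA-treated rats correlated best with their own number. Since 1 pair was under 0.1, same-numbered rats were not taken as pairs. Whether the number marks a shared batch was not tested. At 4 rats a group, the intervals of 7 guides reach past 1.5-fold.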

Other observations

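miR-3596a, which RefSeq (GRCr8) places on the strand opposite let-7a at chr8:50805219-50805240, is the full reverse complement of let-7a. It was examined after its values were seen.
miR-3596a: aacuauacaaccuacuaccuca
It had 217, 211, 301 and 613 counts in control rats 1 to 4 and 198, 396, 296 and 844 in AA-treated rats 1 to 4, so that both rats numbered 4 were the highest of their group. Its log2 fold change was 0.02 (95% interval -0.90 to 0.94, edgeR adjusted p = 0.977). miR-3596d, opposite let-7f, had 2 to 10 counts, miR-3596c, opposite let-7e, 0 to 4, and miR-3596b, opposite let-7d, 0 to 2.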
